A study of Sus scrofa with 48 samples.

Results

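The transcripts described here are those of SOX9 and of 8 further factors of adipocyte differentiation, DLK1, GATA2, GATA3, CEBPA, CEBPB, CEBPD, KLF15 and EBF1, in the dorsal subcutaneous fat of pigs. Their probes were chosen by gene symbol, either the symbol printed on the array or that of the accession the probe was designed on. This gave 9 of the 12901 genes named on the array, with 20 of its 60305 distinct probes. To be tested, a probe had to stand well above the local background in 9 or more pigs out of the 12 of any 1 group, which 17 of the 20 did, against 44356 probes in all. SOX9 was put on the list because of its large fall on the high-fat diet, so its diet difference is given below as a description, with no test.

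The tissue came from 48 Large White pigs aged 132 days, 12 in each of 4 groups, with 1 array per pig. Pigs of a line selected for low residual feed intake (RFI), which eat less than their growth and maintenance predict, and pigs of the opposite line selected for high RFI had free access to 1 of 2 feeds. The HF diet was high in fat and in fiber, and the LF diet was low in both and based on starch. The groups are named by diet and line, as in HF low RFI, and no group received an ordinary diet outside this pair. All levels are log2 signals after setting the median probe of each array to 0, so that a negative level lies under the median probe and is not an absence of signal. They rank pigs for the same probe, and levels of different probes are not comparable.

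Between 62.2% and 81.9% of the probes of an array were well above background, and on 3 arrays, all of the HF diet, the share was under 68%. The arrays lay on 6 slides and were scanned on 2 dates, each slide and date holding all 4 groups in equal number. Position on the slide was not balanced: position 1 held mostly HF arrays and position 8 mostly LF arrays. Diet and array position are thus partly confounded. Markers of mature adipocytes were bright in every group: all 19 of those on the array passed the filter, and their summed level on a linear scale, relative to the median probe, ran from 4169 to 6616 over the 48 arrays. A set of 3 arrays, all of scan date 1 and 1 of them also among those of low detection, carried a raised level of skin epithelium and gland markers, summing to 84.5 in an LF low RFI pig, 64.5 in an HF high RFI pig and 33.1 in an HF low RFI pig, against at most 9.35 on the other 45 arrays. Member differences that rest on either set of 3 arrays are given with and without them.

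White adipocytes arise from fibroblast-like precursors in which a set of factors first holds differentiation back. SOX9, an HMG-box transcription factor best known from cartilage, hair follicles and glands, is present in preadipocytes, where it restrains C/EBP genes and declines as differentiation starts. DLK1 (Pref-1) is a membrane protein of preadipocytes that acts upstream of SOX9, and GATA2 and GATA3 are zinc finger factors that keep preadipocytes from maturing. C/EBPβ and C/EBPδ, the products of CEBPB and CEBPD, are induced early and turn on PPARγ and C/EBPα (CEBPA), which with KLF15 maintain the mature adipocyte, while EBF1 acts in commitment to the adipocyte lineage. The samples are whole tissue, in which fewer cells of a type and less RNA per cell cannot be told apart.

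The probes through which the main results were read are 60 bases long and are shown here as the array's own design table gives them, 5′ to 3′. For SOX9 the first 30 bases of both probes are given, since their diet difference is the largest on the list and the probes do not overlap in sequence.

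SOX9 O11452: cagctcttcttgcaaccagagtatttttgt
SOX9 A_72_P146931: acattccaagacagaaacattagctatcca

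For CEBPA both probes are shown whole, with the 13 bases they share in capitals. The shared bases end the first and open the second, so that the probes read neighboring stretches of the transcript.

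CEBPA O15014: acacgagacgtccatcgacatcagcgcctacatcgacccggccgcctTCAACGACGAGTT
CEBPA A_72_P399728: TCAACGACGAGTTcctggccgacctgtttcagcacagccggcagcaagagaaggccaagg

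For GATA3, 2 of the 3 probes cover the same place and differ at 1 base, T43G counted from the 5′ end of A_72_P177421 and with its base first, which is in capitals in the 30 bases around it. The third GATA3 probe, A_72_P441659, lies elsewhere.

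GATA3 A_72_P177421: ttccctaaggaacagTgtctctctagtgct
GATA3 O11648: ttccctaaggaacagGgtctctctagtgct

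SOX9 was lower on the HF diet in both lines. With probe O11452, well above background on all 48 arrays, the lowest, median and highest levels were -3.47, -2.75 and -0.57 on the HF diet in the low RFI line and -4.17, -2.69 and -0.18 in the high RFI line. On the LF diet they were -2.58, -0.96 and -0.25 in the low RFI line and -2.52, -0.71 and 0.56 in the high RFI line. The diets overlapped: 13 of the 24 HF pigs lay below the lowest LF pig, and 2 of the 24 LF pigs lay above the highest HF pig.

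The mean SOX9 level with O11452 was -2.49 ± 1.01 (SD, n = 24) on the HF diet and -0.93 ± 0.72 (SD, n = 24) on the LF diet. The difference was -1.56 (SE 0.25) on the log2 scale, a 2.96-fold lower signal. On each diet, 22 of 24 pigs lay on their own side of the other diet's mean. With A_72_P146931 the difference was -1.72 (SE 0.27), from -2.61 ± 0.87 on the LF diet to -4.33 ± 1.04 on the HF diet (SD, n = 24 each). This second probe was dim. It was well above background on 11 of 12 arrays in either LF group but on 5 and 4 of 12 in the HF low RFI and HF high RFI groups, so it passed the filter only through the groups in which it is high, and its HF levels came mostly from spots not well above background. Its values are given beside those of O11452 and not as support for them.

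**Figure D1:**
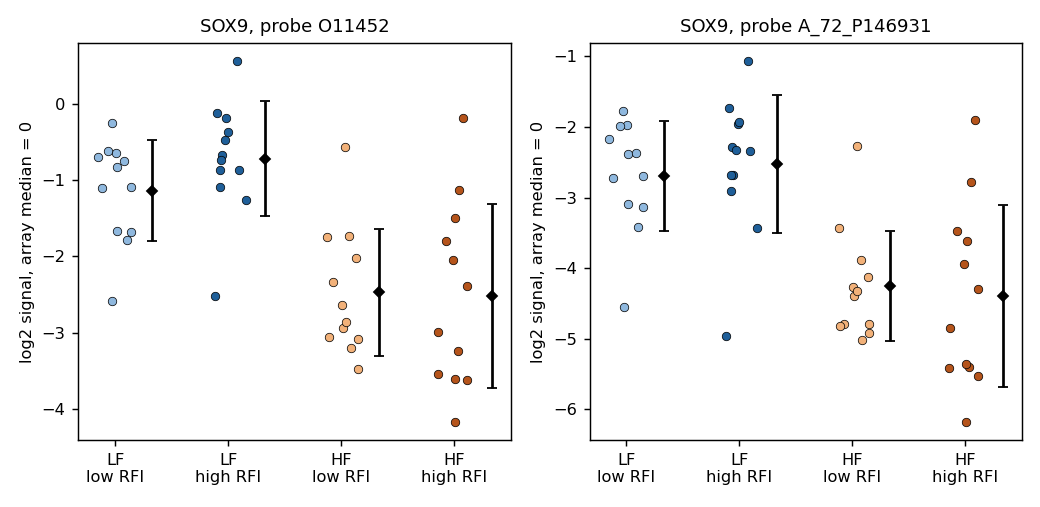
SOX9 level (log2 signal with the array median at 0) on the vertical axis for the 12 pigs of each diet and line group, for both SOX9 probes. Each point is 1 pig and the diamonds with bars are group means ± SD, with O11452 means of -1.14 and -0.72 in the LF groups and -2.47 and -2.52 in the HF groups.

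The SOX9 difference was negative but smaller under 2 other treatments of the signal. With a normexp background correction of the mean signal and an offset of 50 added to every spot it was -0.95 for O11452 and -0.55 for A_72_P146931, or 1.93-fold and 1.47-fold lower. On median in place of processed signals, with no background subtraction, the kind of value the authors deposited, it was -1.11 and -0.74. Within scan date 1 it was -1.42 with O11452 and within scan date 2 it was -1.71. Without the 3 arrays of low detection it was -1.62, and without the 3 arrays rich in skin markers -1.66.

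By group mean, SOX9 (O11452) was highest in LF high RFI pigs, followed by LF low RFI, then HF low RFI and last HF high RFI pigs. The step between the LF groups was 0.42 and that between the HF groups 0.05, both smaller than the pooled SD within groups of 0.89. The step from LF low RFI to HF low RFI was 1.33, part of the fall for which SOX9 was chosen. Spread within a group was wide, and widest in HF high RFI pigs (SD 1.21, n = 12). After removing group means, the 2 probes correlated at r = 0.97 across the 48 arrays. A_72_P146931 was well above background on only 9 of the 24 HF arrays, so this value is a description. The line difference, which the choice of SOX9 did not use, was -0.19 for O11452 (low minus high RFI, SE 0.25, 95% interval -0.68 to 0.31, limma adjusted p = 0.91) and -0.01 for A_72_P146931. The diet difference was -1.33 in low RFI pigs and -1.80 in high RFI pigs with O11452, and the interaction of 0.47 (SE 0.49, 95% interval -0.52 to 1.46) was not called.

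A probe is called below where it met the 3 cut-offs of the study's methods, namely p under 0.01 before adjustment, p under 0.08 after Benjamini-Hochberg adjustment over all 44356 probes, and a change of more than 1.1-fold. By diet, 13.1% of all probes were called. Of the 15 probes of the 8 genes other than SOX9, 2 were called, both of CEBPA and both lower on the HF diet, a share close to that of all probes. The median diet difference of these 15 probes was 0.03 and that of all probes -0.02. By line, 1.37% of all probes and 0 of the 17 member probes were called by limma, 0 had an unadjusted p under 0.05, and 0 were called by the methods' analysis of variance.

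**Figure D2:**
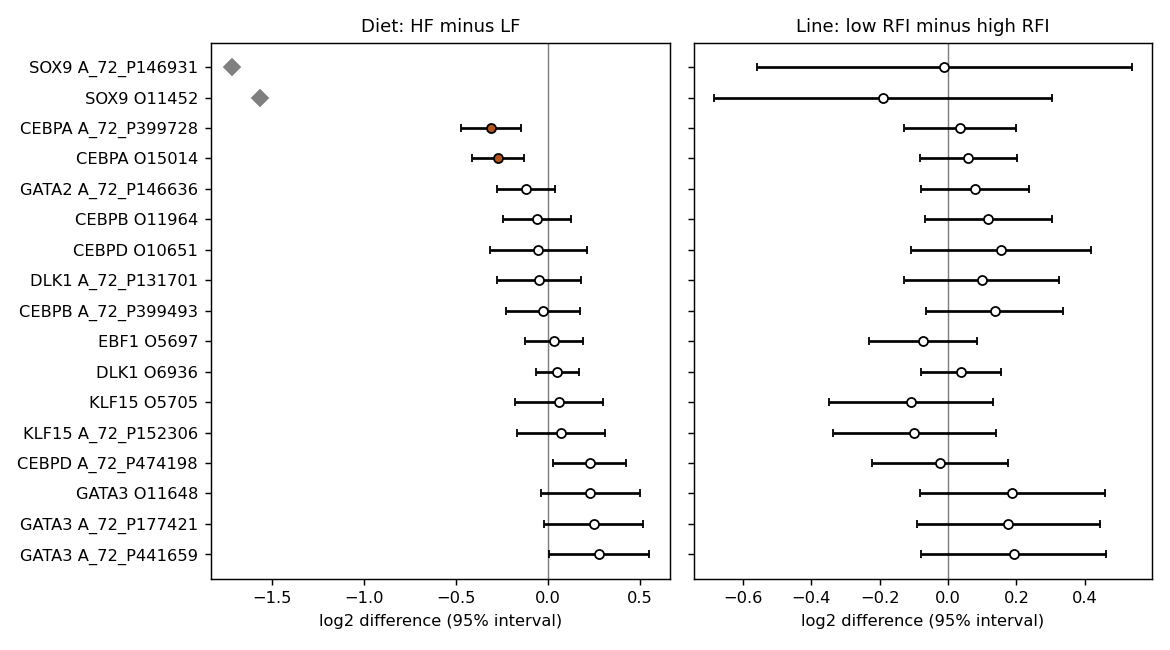
Log2 differences (horizontal axis) with 95% intervals for the 17 member probes that passed the filter, HF minus LF on the left and low RFI minus high RFI on the right, with called differences filled. Grey diamonds at -1.72 and -1.56 are the SOX9 diet differences, drawn with neither interval nor call because SOX9 was chosen on them, the filled points are the CEBPA probes at -0.31 and -0.27, and no line difference is filled.

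Neither tested DLK1 probe showed a called difference between the diets. With A_72_P131701 its lowest, median and highest levels were 1.95, 2.35 and 3.22 in HF low RFI pigs and 1.93, 2.40 and 3.03 in HF high RFI pigs. They were 1.78, 2.52 and 3.41 in LF low RFI pigs and 1.54, 2.40 and 3.11 in LF high RFI pigs. The groups overlapped almost entirely, and the diet difference was -0.05 (SE 0.11, 95% interval -0.27 to 0.18, adjusted p = 0.84). Probe O6936 gave 0.05 (95% interval -0.06 to 0.17). The other 2 DLK1 probes were not tested: A_72_P035731 stood well above background on only 1 array, and A_72_P441289 on 4, all of the HF diet. With no filter on dim probes A_72_P441289 was called, at 0.59 (SE 0.21, adjusted p = 0.079) higher on the HF diet, a value taken mostly from spots not well above background. They share the 42 bases given in capitals, so they count as 1 place in the transcript.

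DLK1 A_72_P441289: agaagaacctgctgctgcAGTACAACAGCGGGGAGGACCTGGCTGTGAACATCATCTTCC
DLK1 A_72_P035731: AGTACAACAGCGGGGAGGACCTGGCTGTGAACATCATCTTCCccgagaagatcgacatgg
DLK1 A_72_P131701: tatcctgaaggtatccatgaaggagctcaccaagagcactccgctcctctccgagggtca

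GATA2, read through A_72_P146636, had lowest, median and highest levels of 2.51, 2.78 and 3.41 in HF low RFI pigs and 2.34, 2.69 and 3.21 in HF high RFI pigs. On the LF diet they were 2.52, 2.93 and 3.33 in the low RFI line and 2.47, 2.85 and 3.33 in the high RFI line. The groups overlapped, and the HF minus LF difference of -0.12 (SE 0.08, 95% interval -0.27 to 0.04, adjusted p = 0.36) was within the spread between pigs. GATA2 is also made by mast cells, whose 4 measured markers were not called by diet.

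GATA3 was the member whose diet difference differed most between the lines, being positive in high RFI and negative in low RFI pigs. With O11648, the brightest of its probes, the lowest, median and highest levels were 1.17, 1.79 and 2.79 in LF high RFI pigs and 1.93, 2.28 and 4.08 in HF high RFI pigs. They were 2.01, 2.47 and 3.73 in LF low RFI pigs and 1.92, 2.31 and 2.85 in HF low RFI pigs. The LF high RFI group was the lowest, with some overlap with each other group.

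In high RFI pigs GATA3 was 0.68 higher on the HF diet with O11648 (SE 0.19, adjusted p = 0.064) and 0.69 higher with A_72_P177421 (SE 0.19, adjusted p = 0.057), both called, where 1.66% of all probes were called. The third probe, A_72_P441659, gave 0.64 (SE 0.19, adjusted p = 0.086), just outside the call. Without the 3 arrays of low detection the differences were 0.69, 0.72 and 0.69 in that order, and the O11648 call was lost (adjusted p = 0.083) while that of A_72_P177421 was kept (0.071). With no filter on dim probes neither was called (adjusted p = 0.092 and 0.083). In low RFI pigs the same difference was -0.21, -0.19 and -0.08, none of them called, where 3.04% of all probes were called. The difference between the lines was -0.89 (SE 0.27, 95% interval -1.43 to -0.35) with O11648, -0.89 with A_72_P177421 and -0.72 with A_72_P441659. Its unadjusted p was 0.0018, 0.0018 and 0.011, but the adjusted p was near 1 for each, and 0 of the 17 member probes and 0% of all probes were called for the interaction. At an unadjusted p under 0.05 these were 4 member probes, the 3 of GATA3 and that of EBF1, and 462 probes in all. The methods' analysis of variance called 0 probes as well. The 3 probes are readings of 1 transcript in the same pigs: O11648 and A_72_P177421, which share all but 1 of 54 aligned bases, correlated at r = 0.99 within groups, and A_72_P441659 correlated with them at 0.87 and 0.86.

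**Figure D3:**
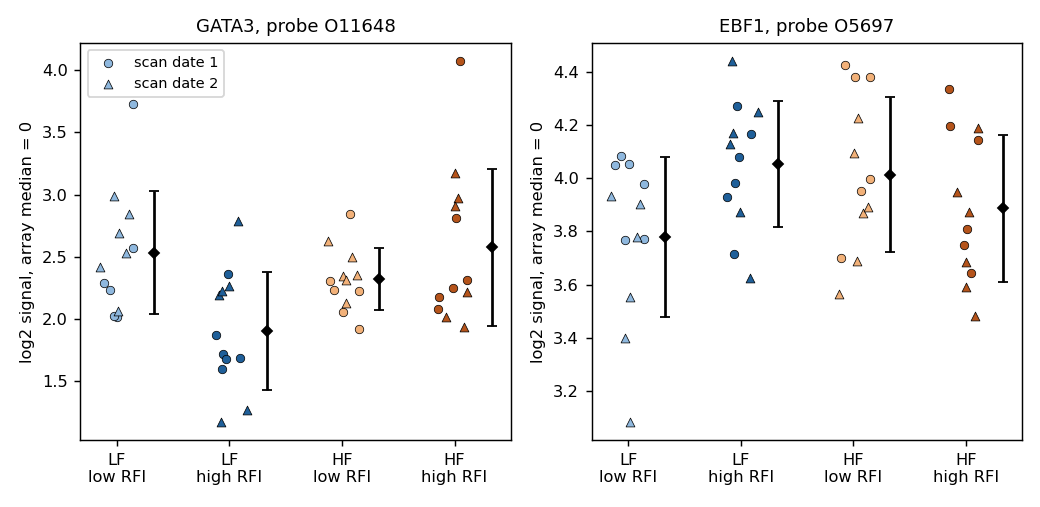
Levels (log2 signal, array median at 0) of GATA3 (O11648) and EBF1 (O5697) for each pig in the 4 diet and line groups, with circles for scan date 1 and triangles for scan date 2 and group means ± SD beside them. GATA3 means were 2.53 and 1.90 in LF low and high RFI pigs and 2.32 and 2.58 in HF low and high RFI pigs, and EBF1 means were 3.78, 4.05, 4.01 and 3.89 in that order.

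Within the LF diet GATA3 was 0.63, 0.62 and 0.55 higher in low than in high RFI pigs with O11648, A_72_P177421 and A_72_P441659, with adjusted p of 0.36, 0.37 and 0.47, none of them called (0.0338% of all probes were). Within the HF diet the 3 differences lay between -0.27 and -0.17, and no member was called either (0.0113% of all probes). Averaged over the lines the diet difference of GATA3 was 0.23 to 0.28, with adjusted p from 0.18 to 0.28.

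GATA3 is also a gene of skin epithelium, of glands and of lymphoid cells, so the levels of their markers were set beside it. Of the 18 skin epithelium and gland markers listed, 13 were on the array and 11 passed the filter, and KRT1 and IVL were below it. None of the 11 was called by diet or by line. All 11 were higher on the HF diet, with a median of 0.36, and their median difference was 0.60 in high RFI and 0.12 in low RFI pigs. These differences include the 3 arrays rich in skin markers and are not given without them. Their summed linear level ran from 1.91 to 84.5 in LF low RFI pigs, from 2.01 to 8.60 in LF high RFI pigs, from 2.27 to 33.1 in HF low RFI pigs and from 2.53 to 64.5 in HF high RFI pigs. The arrays with the highest sum carried the highest GATA3 of the LF low RFI, HF high RFI and HF low RFI groups. Because these 3 arrays stood apart, no correlation of GATA3 with the skin marker sum over all arrays is given. Within scan date 2, which held none of them, r between GATA3 and the log2 sum, group means removed, was -0.11 over 24 arrays, and over the 21 other arrays of scan date 1 it was 0.40.

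Without these 3 arrays the GATA3 interaction was -0.69 with O11648 (unadjusted p = 0.0029), -0.69 with A_72_P177421 (unadjusted p = 0.0028) and -0.50 with A_72_P441659 (unadjusted p = 0.035). The difference between diets in high RFI pigs was then 0.54, 0.56 and 0.49, and O11648 and A_72_P177421 were still called. With the skin marker sum as a covariate it was 0.52, 0.53 and 0.50 and none of the probes was called, with adjusted p of 0.12, 0.10 and 0.17. With array position as a block O11648 gave 0.67 (adjusted p = 0.17) in high RFI pigs, not called, and within either scan date no GATA3 probe was called. Within scan date 2 alone the interaction was -0.76 with O11648, and within scan date 1 it was -1.01. The 9 measured T cell and innate lymphoid markers had a median diet difference of 0.06, none called. With group means removed, r between GATA3 and the log2 summed endothelial markers was 0.40 over the 48 arrays (0.17 and 0.67 within scan dates 1 and 2), and with skeletal muscle markers 0.33 (0.46 and 0.26), points that share arrays and centring. The values over 48 arrays and within scan date 1 include the 3 arrays rich in skin markers and are not given without them. In high RFI pigs the median diet difference was 0.05 for the 10 endothelial and -0.28 for the 9 muscle markers. Their part in the GATA3 result was not tested.

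**Figure D4:**
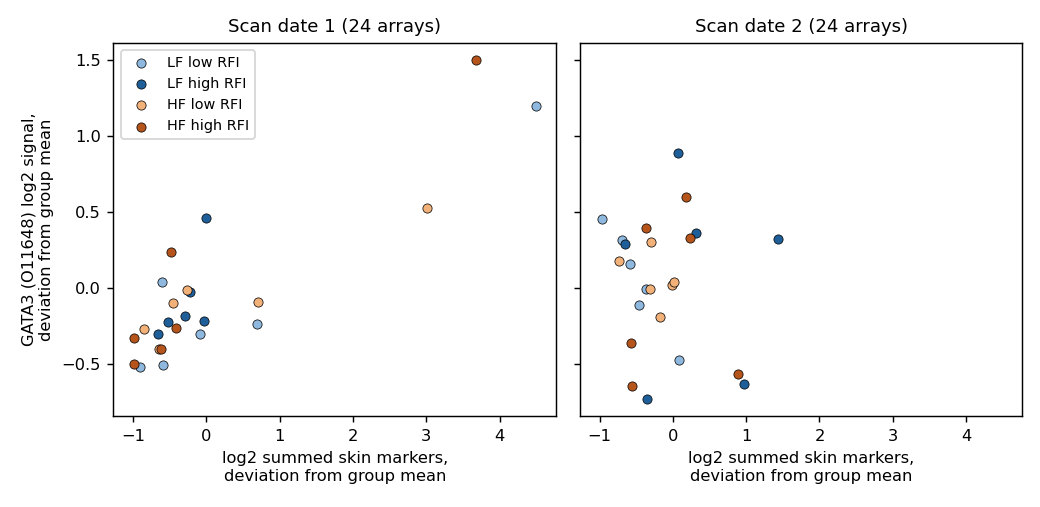
GATA3 level (O11648, vertical axis) against the log2 summed level of 11 skin epithelium and gland markers (horizontal axis), both as deviations from the group mean, for the 24 arrays of each scan date. The 3 arrays to the right on scan date 1 are those with summed levels of 84.5, 64.5 and 33.1, and the 24 arrays of scan date 2 show r = -0.11.

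CEBPB and CEBPD, the early factors, did not pass the test for diet. CEBPB with A_72_P399493 had lowest, median and highest levels of -1.58, -0.98 and -0.58 in HF low RFI pigs and -1.94, -1.02 and -0.80 in HF high RFI pigs. On the LF diet they were -1.52, -1.05 and -0.32 in the low RFI line and -1.63, -0.92 and -0.56 in the high RFI line. The groups coincided, and the diet difference was -0.03 (SE 0.10, 95% interval -0.23 to 0.18, adjusted p = 0.91), with -0.06 (95% interval -0.25 to 0.12) for O11964. A further 3 probes that the array ties to CEBPB by their description, and which are not among the 20, gave -0.09 to -0.07, with adjusted p from 0.58 to 0.70. O11964 followed A_72_P399493 only loosely, with r = 0.30 within groups. The 3 further probes followed A_72_P399493 at r from 0.82 to 0.84 and O11964 at r from 0.48 to 0.52.

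CEBPD with A_72_P474198 had lowest, median and highest levels of 2.01, 3.02 and 3.40 in HF low RFI pigs and 2.53, 3.11 and 3.52 in HF high RFI pigs. On the LF diet they were 2.36, 2.84 and 3.56 in the low RFI line and 2.31, 2.77 and 3.43 in the high RFI line. HF pigs tended to lie above LF pigs, with 19 of 24 over the LF mean, but the difference of 0.23 (SE 0.10, 95% interval 0.03 to 0.43, adjusted p = 0.13) was not called. Quantile normalization between arrays brought it to 0.27 and an adjusted p of 0.060, a call. O10651, at the edge of the filter with 9 and 8 of 12 arrays above background on the HF diet (low and high RFI) and 10 of 12 in either LF group, gave -0.05 (95% interval -0.31 to 0.21). It followed the first CEBPD probe only loosely, with r = 0.32 within groups. A_72_P295134 did not pass the filter, with at most 5 of 12 arrays above background in a group, and its 12 HF high RFI levels ran from -5.32 to -1.20.

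CEBPA, whose product with PPARγ sustains the expression of mature adipocyte genes, was lower on the HF diet. With O15014 its lowest, median and highest levels were 0.45, 0.89 and 1.21 in HF low RFI pigs and 0.38, 0.70 and 1.20 in HF high RFI pigs. They were 0.66, 1.09 and 1.54 in LF low RFI pigs and 0.74, 1.02 and 1.47 in LF high RFI pigs. The diets overlapped, with 11 of 24 HF pigs below the lowest LF pig and 7 of 24 LF pigs above the highest HF pig.

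The CEBPA mean fell from 1.07 on the LF diet to 0.80 on the HF diet with O15014, a difference of -0.27 (SE 0.07, 95% interval -0.41 to -0.13, limma adjusted p = 0.0093), or 1.21-fold. With A_72_P399728 it fell from 0.57 to 0.27, a difference of -0.31 (SE 0.08, adjusted p = 0.010), or 1.24-fold. On both probes 21 of 24 HF pigs lay below the LF mean. The 2 further probes that other accessions tie to CEBPA, not counted among the members, were called in the same direction, at -0.30 (SE 0.09, adjusted p = 0.024) for A_72_P344038 and -0.14 (SE 0.05, adjusted p = 0.058) for A_72_P412888. Within the lines the O15014 difference was -0.30 in the low RFI line and -0.24 in the high RFI line, neither called on its own (adjusted p = 0.11 and 0.24), and the interaction was -0.05 (95% interval -0.34 to 0.23). In the low RFI line both CEBPA probes were called with the replicate block (adjusted p = 0.058 for O15014 and 0.049 for A_72_P399728), with array weights (0.043 and 0.051) and without the 3 arrays rich in skin markers (0.044 and 0.046). Calls over all 44356 probes in that line rose as well, from 1349 to 2853, 4174 and 1839 in that order.

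The CEBPA difference was unequal between scan dates. It was -0.14 (SE 0.09, adjusted p = 0.43) with O15014 within scan date 1 and -0.40 (SE 0.10, adjusted p = 0.054) within scan date 2, and with A_72_P399728 it was -0.16 (adjusted p = 0.45) and -0.45 (adjusted p = 0.052). The call was lost within scan date 1, and the difference between the dates was not tested. With scan date as a block the adjusted p was 0.0083 and 0.0093. Of the 19 mature adipocyte markers, 3 (15.8%) fell on the HF diet and 0 rose, where 12.7% of all genes, read through 1 probe each, were called, 1040 lower and 367 higher. The median difference of the 19 was -0.11, beside -0.04 for all genes. The called markers were the adipokine LEP at -0.67 (SE 0.16, adjusted p = 0.0049), the lipid droplet protein CIDEA at -0.36 (SE 0.10, adjusted p = 0.015) and TUSC5 at -0.46 (SE 0.16, adjusted p = 0.053).

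**Figure D5:**
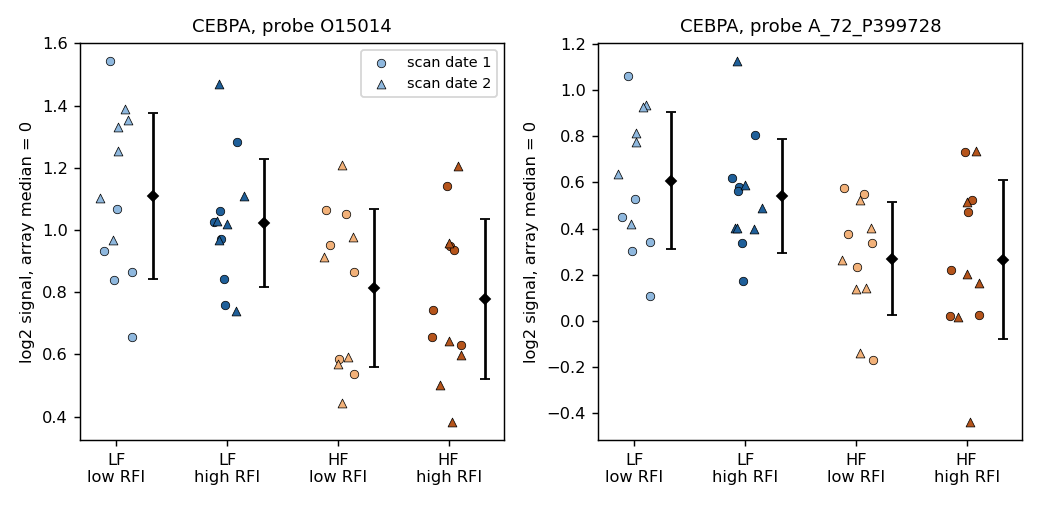
CEBPA level (log2 signal, array median at 0) for each pig in the 4 groups with both CEBPA probes, circles for scan date 1 and triangles for scan date 2, and group means ± SD. O15014 means were 1.11 and 1.02 in LF low and high RFI pigs and 0.81 and 0.78 in HF low and high RFI pigs.

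KLF15, a factor that raises the insulin-responsive glucose transporter in fat, was read through 2 spots of the same sequence. The probes O5705 and A_72_P152306 are identical over all 60 bases, which open as follows.

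KLF15 O5705: gagctagatagagcctccaatcctgattta

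Their levels differed by 0.03 on average, with an SD of 0.05 over the 48 arrays, which gives the size of the error from spot to spot for a bright probe. With O5705 the lowest, median and highest KLF15 levels were 3.76, 4.33 and 4.87 in HF low RFI pigs and 3.50, 4.34 and 5.18 in HF high RFI pigs. On the LF diet they were 3.72, 4.12 and 4.83 in the low RFI line and 3.44, 4.47 and 5.34 in the high RFI line. The groups overlapped throughout, and the diet difference was 0.06 (SE 0.12, 95% interval -0.18 to 0.30, adjusted p = 0.79).

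EBF1, read through O5697, had lowest, median and highest levels of 3.56, 3.97 and 4.42 in HF low RFI pigs and 3.48, 3.84 and 4.33 in HF high RFI pigs. On the LF diet they were 3.08, 3.84 and 4.08 in the low RFI line and 3.62, 4.10 and 4.44 in the high RFI line. The groups overlapped. Averaged over lines the diet difference was 0.03 (SE 0.08, 95% interval -0.12 to 0.19, adjusted p = 0.83). It was 0.23 (SE 0.11) in the low RFI line and -0.17 (SE 0.11) in the high RFI line, neither called. The interaction was 0.40 (SE 0.16, unadjusted p = 0.014), opposite in sign to that of GATA3, and with an adjusted p near 1 it was not called. Within scan date 1 it was 0.23 (unadjusted p = 0.23) and within scan date 2 it was 0.57 (unadjusted p = 0.018).

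The other regulators of adipogenesis were taken gene by gene, each through its brightest probe, a scale on which 12.7% of 11096 genes were called by diet and 1.32% by line. Of 25 measured genes listed here as pro-adipogenic regulators, 3 fell on the HF diet and 0 rose. The list was made by name, and the role of each gene in this tissue was not tested. These were RXRA, the partner of PPARγ in binding DNA, at -0.21 (SE 0.06, adjusted p = 0.0084), CEBPG, a C/EBP family member, at -0.23 (SE 0.07, adjusted p = 0.016), and the bone morphogenetic protein BMP2 at -0.19 (SE 0.07, adjusted p = 0.055). The median of the 25 was -0.01, beside -0.04 for all genes. PPARG itself, at -0.05 (adjusted p = 0.61), was not called with its array probe. The study's own qPCR on RNA of the same pigs reported PPARG as higher on the HF diet in this fat.

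Of 25 measured anti-adipogenic regulators, 1 rose and 2 fell on the HF diet, with a median of 0.01. RUNX1T1, a corepressor that inhibits C/EBP factors, rose by 0.31 (SE 0.06, adjusted p = 0.00037). SMAD3, which carries TGF-β signals, fell by 0.27 (SE 0.07, adjusted p = 0.013), and WWTR1 (TAZ), a coactivator of the Hippo pathway, fell by 0.19 (SE 0.05, adjusted p = 0.015). By line, 1 gene of each list was called, both higher in low RFI pigs, STAT5A at 0.23 (SE 0.06, adjusted p = 0.057) and TWIST1 at 0.27 (SE 0.08, adjusted p = 0.069).

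None of the other 9 measured members of the SOX family was called by diet or line, their diet median being -0.02. The 7 measured cartilage genes that SOX9 regulates, among them COL2A1 and ACAN, were not called either and had a diet median of 0.18, with 1 of 7 lower on the HF diet. The 3 measured cartilage cell markers, COL2A1, ACAN and COL9A1, are among these 7 and not a further result. The SE was large for COL2A1 (0.70) and ACAN (0.25). Progenitor and fibroblast markers had a diet median of 0.10, and 1 of 17 was called, PDGFRA at 0.31 (SE 0.11, adjusted p = 0.066) higher on the HF diet. No endothelial, mast cell, macrophage, skeletal muscle or blood marker was called by diet. All 9 skeletal muscle markers (median -0.20) and all 4 blood markers (median -0.12) were lower on the HF diet. Of the endothelial, mast cell and macrophage markers 4 of 10, 1 of 4 and 3 of 10 were lower, with medians of 0.03, 0.24 and 0.04. With the skin marker sum as a covariate the SOX9 difference was -1.61. With group means removed, r over the 48 arrays between SOX9 (O11452) and the log2 summed level was -0.42 for progenitor and fibroblast markers (-0.31 and -0.47 within scan dates 1 and 2), 0.40 for T cell and innate lymphoid markers (0.30 and 0.49) and 0.38 for mature adipocyte markers (0.05 and 0.54), with the other cell type lists, skin apart, between -0.22 and 0.12. For skin markers it was -0.03 over the 45 arrays without the 3 rich in them, 0.15 over the 21 of these on scan date 1 and -0.19 on scan date 2. For EBF1 the largest was 0.41 with mast cell markers (0.18 and 0.66), and for CEBPA 0.26, also with mast cell markers (0.35 and 0.18). These points share arrays and centring, and the part of these cells in the member differences was not tested.

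Across the 48 pigs, with group means removed, SOX9 (O11452) was set against 1 probe of each of the 8 other genes, 8 relations in all. The probe was the brightest of that gene among the 17 member probes. For CEBPA this was O15014 and for CEBPB A_72_P399493. The brighter probes tied to these genes by another accession or by description were not used. None passed after Benjamini-Hochberg adjustment in the permutation test. The strongest were with CEBPA (Pearson r = 0.33, permutation p = 0.027, adjusted 0.15; Spearman rho = 0.26, permutation p = 0.084, adjusted 0.34) and EBF1 (r = -0.31, permutation p = 0.038, adjusted 0.15; rho = -0.27, permutation p = 0.075, adjusted 0.34). For CEBPA r was 0.38 and 0.29 within scan dates 1 and 2, and 0.44 without the 2 arrays farthest from the SOX9 median, but by group it ran from -0.47 in LF high RFI to 0.71 in HF low RFI pigs (n = 12 each). For EBF1 it was -0.10 and -0.42 within the scan dates, and -0.34 without those 2 arrays. The other 6 genes gave r from 0.05 to 0.20, with adjusted p from 0.50 to 0.73 for r and from 0.56 to 0.69 for rho.

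Among 11064 genes, the 5 whose deviations from group means followed SOX9 most closely over the 48 arrays were MIER2 (r = 0.55), CPEB4 (0.54), RAB3A (0.54), C2H11orf68 (0.52) and SPSB2 (0.52). The 3 most opposed were LAMA2 (r = -0.60), COL6A3 (-0.55) and FST (-0.55), the genes of a laminin chain, a collagen VI chain and the activin-binding protein follistatin. The middle 90% of genes lay between -0.28 and 0.32, and the points share arrays, centring and tissue make-up, so these are descriptions. Of the genes that followed SOX9, CPEB4, RAB3A and C2H11orf68 were called lower on the HF diet, at -0.50, -0.43 and -0.16, and MIER2 and SPSB2, at -0.21 and -0.0047, were not called. LAMA2, COL6A3 and FST were each called higher on the HF diet, at 0.30, 0.31 and 0.38, and their r was closer to 0 within scan date 1 (-0.44, -0.32 and -0.26) than within scan date 2 (-0.67, -0.64 and -0.68).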

How the data were processed

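RNA of dorsal subcutaneous fat was labeled with Cy3 and hybridized to a custom porcine Agilent array of 1 color, 1 array per pig. The deposited scanner files give spot intensity as Agilent Feature Extraction 10.7.3.1 produced it. The deposited log2 table of 38987 probes holds the median brightness that the authors filtered for spot quality, log2 transformed and centred on each array's median in R 2.10.0, and was used as an alternative. The annotation's genome build is not given in the sources used here, so no coordinates are printed.

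For the main values, log2 processed signals were centred on the median of the 44356 probes kept. Flagged spots were left out (none among the members). Symbols came from the array or, by accession or gene number, from the Sscrofa11.1 gene tables, and 33512 probes had none. Group means were fitted with limma 3.58.1 (R 4.3.3) on all 48 arrays with a trended prior, and contrasts taken for diet, line and their interaction, adjusted over all kept probes. The fit was tested on simulated data. Relations used 100000 permutations within groups (scipy 1.17.1). Nothing says that pigs of a group shared litters or pens, and precision is limited by the number of arrays.

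Named genes were all members with every probe, the called genes of each list with the lowest p (4 by diet, 2 by line), and the 5 highest and 3 lowest correlations with SOX9. PPARG, COL2A1, ACAN, COL9A1, KRT1 and IVL were named outside this rule, as list genes not called or below the filter. The members and lists were chosen with earlier results of these data known. Alternatives covered background correction, normalization, filters, slide, scan date, position, replicate number, array weights, the deposited table and the methods' two-way analysis of variance. Leaving out arrays of low detection, leaving out arrays rich in skin markers, and the skin marker covariate were chosen after seeing the data.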

Additional observations from a re-analysis of the deposited data

Results flagged for a closer look

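The diet differences of GATA3 and EBF1 differed between the lines at an unadjusted p under 0.05, by limma's interaction term, and none of these passed adjustment over all probes. For GATA3 the diet difference in low RFI pigs minus that in high RFI pigs was -0.89 (A_72_P177421, unadjusted p = 0.0018), -0.72 (A_72_P441659, unadjusted p = 0.011) and -0.89 (O11648, unadjusted p = 0.0018) on the log2 scale, 3 readings of 1 transcript. For EBF1 it was 0.40 (O5697, unadjusted p = 0.014). All 4 kept their sign within each scan date, without the 3 arrays of low detection and without the 3 arrays rich in skin markers.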

How the results depend on the processing

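SOX9 was left out of the counts by diet, since it was chosen on that contrast. The count of other member probes called by diet was 2 of 15, both of CEBPA, and 2 in the alternatives but for 0 within scan date 1, 3 with quantile normalization, which added CEBPD (A_72_P474198), and 3 with no filter on dim probes, which added DLK1 (A_72_P441289), a probe outside the 15. The counts by line and for the interaction over all 17 probes were 0 in all 20 alternatives. Within low RFI pigs the count of 0 became 2, both of CEBPA, with the replicate block, with array weights and without the 3 arrays rich in skin markers. Over all 44356 probes these settings gave 2853, 4174 and 1839 diet calls in low RFI pigs, against 1349 in the main fit. Within high RFI pigs the count of 2, both of GATA3, became 0 with no filter on dim probes, with array position as a block, with the skin marker sum as a covariate and within either scan date, and 1 without the 3 arrays of low detection. It became 3, with A_72_P441659 added, with 75th percentile scaling, probes well above background on all 48 arrays, slide, scan date or replicate number as a block, array weights and the array median as a covariate. Over all probes, diet calls in high RFI pigs were 737 in the main fit and ran from 747 to 2324 where the member count was 3. They ran from 0 to 561 where it was 0, and were 599 without the 3 arrays of low detection. Over all probes, diet calls fell from 5790 to 2407 and 1230 within scan dates 1 and 2, where fewer arrays were fitted. With array position as a block, on all 48 arrays, they fell to 4285, and the highest count was 7836, with array weights. Within low RFI pigs the main 1349 fell to 15 with position as a block, and within high RFI pigs 737 fell to 230. With array weights these were 4174 and 2324. Line calls of 606 became 399 with no filter, 957 with slide as a block, 262 with position as a block, 1140 with the replicate block, 1 within scan date 2 and 1817 with array weights. The SOX9 difference with A_72_P146931, -1.72, was -0.55 with normexp, -0.74 without background subtraction and -0.73 in the deposited table.

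Diet differences that changed sign were all uncalled. Within scan date 1 they were 0.0775 and 0.0345 for CEBPB (A_72_P399493, O11964) and -0.017 and -0.043 for KLF15 (A_72_P152306, O5705). Within scan date 2 they were 0.027 for CEBPD (O10651) and -0.0029 for EBF1. With the array median as a covariate they were 0.15 for DLK1 (A_72_P131701), 0.0069 for GATA2, 0.058 for CEBPB (O11964), and -0.083 and -0.097 for KLF15. CEBPB (A_72_P399493) was 0.011 with array weights and CEBPD (O10651) 0.028 without background subtraction. Line differences changed sign within scan date 2 to 0.25 and 0.061 for SOX9 (A_72_P146931, O11452), -0.062 for DLK1 (O6936), 0.040 for CEBPD (A_72_P474198) and 0.022 for KLF15 (A_72_P152306). Within scan date 1 they were -0.032 and -0.0029 for CEBPA (A_72_P399728, O15014), -0.066 for CEBPD (O10651) and 0.043 for EBF1, and without the 3 arrays rich in skin markers 0.045 for SOX9 (A_72_P146931). The causes were not tested.

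Pigs of different groups with the same replicate number always shared a slide, and their deviations correlated at a median of 0.16 (-0.19 to 0.45), against -0.02 for different numbers, and 17 of 48 arrays correlated best with an array of their own number, a hint from the data that number or slide is shared. Since the labels name no shared litter, batch or day and only 48 of 72 pairs were over 0.1, the numbers were not taken as pairs. With the replicate block the member probes other than SOX9 called by diet were again 2 in number and the diet calls over all probes were 7124.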
